A study of Homo sapiens with 2 samples.

Results

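The interferon response genes examined here are 38 genes of a fixed list, chosen by name, and each was found once among the 60725 genes of the deposited gene table. They were compared between CD44 high (labelled CD44 Positive) and CD44 low (labelled CD44 Negative) cells sorted from KYSE30, an established human esophageal squamous cell carcinoma line. The line carried luciferase and GFP (KYSE30-Luc-GFP), introduced with a lentivirus and drug selection, so that cells of both fractions had this history in common. Cells were grown in vitro, stained with an antibody to CD44, the hyaluronan receptor, and the brightest and dimmest cells were sorted by flow cytometry. Each fraction gave 1 poly(A) RNA library. With 1 library per fraction there was no replicate and no test, and every interval below is a 95% exact binomial interval that covers counting error only.

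Interferons are secreted proteins that cells release when sensors detect viral or misplaced nucleic acid. Type I interferons (IFN-alpha, IFN-beta) and type III interferons (IFN-lambda) bind their receptors, and the kinases JAK1 and TYK2 then phosphorylate STAT proteins, among them STAT2, which joins IRF9 in the complex ISGF3. ISGF3 binds the interferon-stimulated response element in promoters and turns on a broad set of genes that block viral entry, translation and replication. Several of these genes, the IFIT genes and ISG15 among them, can also be switched on directly by IRF3 without secreted interferon. Epithelial cells respond to both types and are the main target of IFN-lambda.

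The libraries held 21633236 expected counts in the CD44 high fraction and 22859583 in the CD44 low fraction. In this design fewer cells in a state and less RNA per cell cannot be told apart. Expected counts are the read numbers that the RSEM program assigns to a gene, and they are fractional where reads are shared with another gene. CD44 itself had 22819 counts in CD44 high cells, against 9727 in CD44 low cells, in the direction of the labels. Of 8 markers of a squamous epithelial line, KRT8, KRT18, EPCAM, CDH1, TP63 and KRT6A were abundant in both, but differed in direction. KRT8, KRT18 and EPCAM were higher in CD44 high cells, and CDH1, TP63 and KRT6A were lower. KRT6A had 1527.76 counts in CD44 high against 5815.62 in CD44 low cells, and TP63 had 2551 against 5287. KRT18 had 39062.6 against 26900.2. The basal keratin KRT14 had 28.38 in CD44 high against 81.85 in CD44 low cells, and KRT5 had 0 against 8. The 8 immune cell markers summed to 9 counts in CD44 high and 5 in CD44 low cells, and PTPRC, which marks leukocytes, had 0 against 1. Transcripts of the mitochondrial genome made up 7.50% of CD44 high counts, against 14.0% of CD44 low counts, and the part of this difference in the results below was not tested.

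Promoters of interferon-stimulated genes commonly carry the element that ISGF3 and the IRF factors bind. RefSeq promoters (GRCh38, 250 bases before to 50 after the start site) matched 31 of the 38 genes. The core of the response element was searched as GAAA, then NN (any bases), then GAAA, on either strand, so that on the other strand it reads TTTC, NN, TTTC, and matches could overlap. It occurred in 19 of the 31 (61.3%), against 3.57% of all 35116 promoters of the same length. A match is a description of letters and not evidence of binding in these cells. The stretches below show the element in abundant members of several roles and in the IFITM genes, and BST2 was added after its values had been seen. Capitals mark the core, and each stretch is read along the strand of its gene.
IFIT1 (chr10:89392490-89392569, plus strand): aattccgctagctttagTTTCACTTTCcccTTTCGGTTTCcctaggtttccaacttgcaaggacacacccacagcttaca
ISG15 (chr1:1013360-1013439, plus strand): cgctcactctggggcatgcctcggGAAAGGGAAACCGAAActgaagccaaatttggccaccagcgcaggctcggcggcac
IFITM1 (chr11:313960-314039, plus strand): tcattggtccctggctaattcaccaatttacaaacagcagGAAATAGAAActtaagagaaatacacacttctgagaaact
IFITM3 (chr11:320861-320940, minus strand): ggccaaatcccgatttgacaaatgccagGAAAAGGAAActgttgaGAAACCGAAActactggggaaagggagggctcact
BST2 (chr19:17405705-17405784, minus strand): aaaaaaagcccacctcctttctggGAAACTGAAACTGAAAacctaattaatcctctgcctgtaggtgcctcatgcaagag
SAMD9 (chr7:93118066-93118145, minus strand): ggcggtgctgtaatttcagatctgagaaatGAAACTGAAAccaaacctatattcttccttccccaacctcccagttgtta
In ISG15 and in BST2 a pair of overlapping matches forms 1 longer run. In IFIT1 the matches begin 116 and 103 bases before the start site. IFITM1 has a second match that begins 6 bases before the start site and runs past it, beyond the stretch shown. Genes with a ratio above 1 and genes with a ratio below 1 both stand among the printed promoters. Among the genes with an interval above equality 4 of 5 matched promoters held the core, and among those below equality 4 of 11. No match lay in the windows of DDX58, STAT2, IRF1, IRF9, OAS1, RSAD2, SAMD9L or PARP9 of these.

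Most of the list was transcribed in both fractions at similar levels. Of the 38 genes, 27 had at least 50 expected counts in a library, 9 had 1 to 50 counts, and 2 were listed at 0 in both. A gene was called when it had at least 50 counts in a library, a ratio of 2-fold or more and an interval excluding equality. By that rule none of the 27 was higher in CD44 high cells and 1 was lower, IFITM1. Over all genes with that many counts, 5.46% were called, 1.24% higher and 4.21% lower, and 1 of 27 (3.70%) is near that background. At a ratio of 1.5-fold, 5 of the 27 were lower (IRF9, OAS1, IFITM1, RSAD2 and SAMD9L) and none was higher, where 15.4% of all such genes passed, 10.5% lower and 4.96% higher. The interval lay above equality for 7 of the 27 and below it for 12. Among all 12371 such genes it excluded equality for 63.3%, above for 32.4% and below for 31.0%. Requiring only 20 counts in either library left 31 genes, whose median log2 ratio was -0.24, beside -0.01 over all 13893 such genes. Of these members, BST2, IFI27 and IFI44L reached 20 counts only through the CD44 low library.

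**Figure D1:**
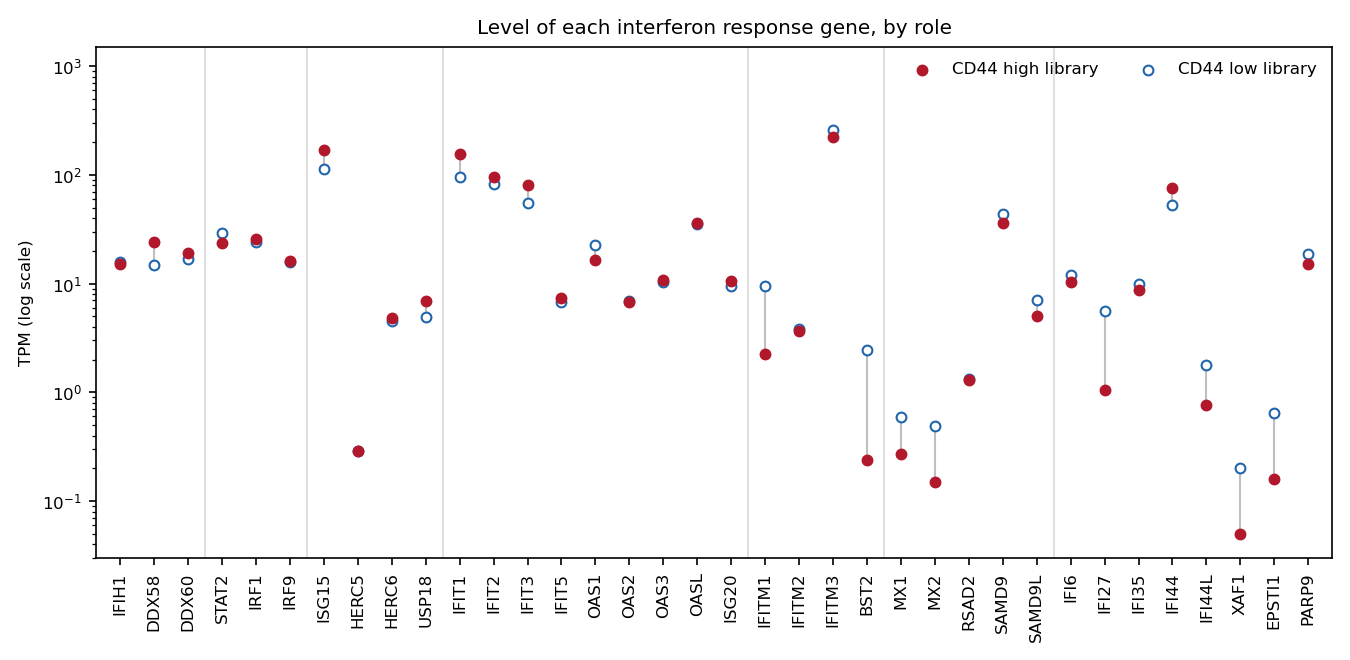
TPM (a transcript level that RSEM corrects for length and depth, log scale) of the 36 interferon response genes above 0, with filled points for the CD44 high library and open points for the CD44 low library, and vertical lines between role groups. IFITM3, ISG15 and IFIT1 stood highest in both libraries, and the widest gaps were among genes under 10 TPM such as IFITM1 and BST2.

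By scaled counts, the total output of the list hardly differed between the fractions. The 38 genes summed to 30086.5 counts in CD44 high cells and 30406.4 in CD44 low cells, a ratio of 0.99 (0.97 to 1.01). This depended on the scaling. As a share of all counts, the list made up 0.139% (0.138 to 0.141) in CD44 high and 0.133% (0.132 to 0.135) in CD44 low cells. Its TPM values summed to 1107.83 in CD44 high against 992.6 in CD44 low cells. The make-up of the list differed as well. Per length, the 6 most abundant members were the same genes in the same order in both libraries. IFITM3 led with 220.68 TPM in CD44 high against 258.69 in CD44 low cells. ISG15 followed with 168.70 against 113.20 TPM, IFIT1 with 155.56 against 94.94, IFIT2 with 96.34 against 81.89, IFIT3 with 81.45 against 55.01 and IFI44 with 75.16 against 53.08. Of these 6, only IFITM3 was lower in CD44 high cells by counts.

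The sensors of viral RNA differed in direction. DDX58 encodes RIG-I, which binds short double-stranded RNA with a 5′ triphosphate, and it had 1511 counts in CD44 high cells, against 1025 in CD44 low cells (1.48-fold higher, 1.36 to 1.60). IFIH1 encodes MDA5, which binds long double-stranded RNA, and it had 682 counts in CD44 high cells against 807 in CD44 low cells, a ratio of 0.85 (0.76 to 0.94). DDX60, a helicase described as a cofactor of RIG-I, had 1238 counts against 1179, and its interval spanned equality (0.97 to 1.14). The pair of RIG-I-like receptors thus differed in direction beyond counting error, with neither near 2-fold.

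The transcription factors that carry the interferon signal were lower in CD44 high cells by counts, each by less than 2-fold. STAT2 had 796 counts in CD44 high cells, against 1119 in CD44 low cells (1.40-fold lower, 1.28 to 1.54). IRF9, the DNA-binding subunit of ISGF3, had 159.68 counts against 249.26 (1.56-fold lower, 1.27 to 1.91), and its counts are fractional. IRF1, which is induced by IFN-gamma and binds the same promoter element, had 601 counts against 756 (1.26-fold lower, 1.13 to 1.40). IRF7, the factor that amplifies IFN-alpha transcription, was listed at 0 in both libraries, for the gene and for each of its 16 transcripts, and whether this reflects its level or the counting is not known. On the TPM scale IRF1 and IRF9 turned, with 25.95 against 24.19 TPM and 16.12 against 15.92 TPM. That scale moved the median of all genes to 0.15 (log2 of TPM + 1), and relative to that shift IRF1 stood at -0.06 and IRF9 at -0.14, with STAT2 at -0.44.

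**Figure D2:**
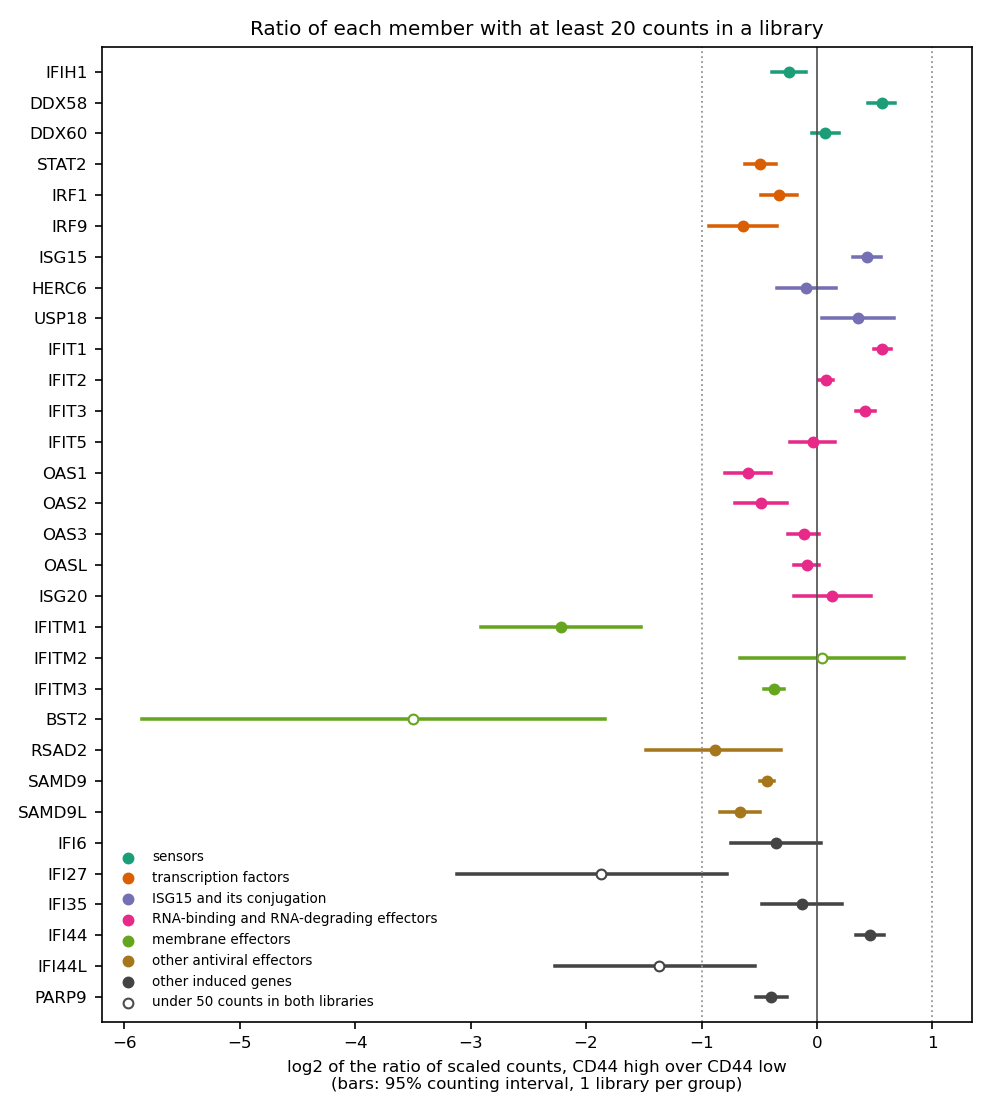
Ratio of scaled counts, CD44 high over CD44 low, on a log2 axis for the 31 members that reached 20 counts, coloured by role. Bars are 95% counting intervals, dotted lines mark 2-fold, and open points have under 50 counts in both libraries. DDX58, ISG15, IFIT1, IFIT3 and IFI44 lie to the right of 0, and IFITM1 is the only filled point beyond 2-fold.

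ISG15 is a ubiquitin-like protein that HERC5 attaches to other proteins and USP18 removes. It had 1310 counts in CD44 high cells, against 970 in CD44 low cells (1.35-fold higher, 1.24 to 1.47). USP18, which also binds the IFN-alpha receptor and damps its signal, had 202.85 counts against 159.16 (1.28-fold higher, 1.03 to 1.58), with fractional counts. The ligase HERC5 was scarcely detected, with 11 counts against 13. HERC6, the main ISG15 ligase in mice, had 249 against 266 counts, an interval that spanned equality. ISG15 and USP18 were both higher beyond counting error, and the ligase genes showed no detectable difference at this depth.

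The IFIT family, whose products bind foreign or 5′-modified RNA and block its translation, lies in a row on chromosome 10 from 89301955 to 89421001 (GRCh38). IFIT1 (ENSG00000185745.9), which binds RNA lacking cap methylation, had 3989 counts in CD44 high cells, against 2697 in CD44 low cells (1.48-fold higher, 1.41 to 1.56). IFIT3, its stabilizing partner, had 2822 against 2113 counts (1.34-fold higher, 1.26 to 1.42). IFIT2 had 4492 counts against 4271, a ratio of 1.05 (1.01 to 1.10), and IFIT5 had 422 against 434, a ratio of 0.97 (0.85 to 1.12) that turned above 1 when libraries were scaled by total counts or on the TPM scale. The 4 genes summed to 11725 against 9515 counts, 1.23-fold higher in CD44 high cells (1.20 to 1.27). IFIT1 and IFIT3 thus carried the difference, while their neighbours IFIT2 and IFIT5 lay closer to equality.

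The OAS family leaned the other way. OAS1, OAS2 and OAS3 make 2′-5′ oligoadenylate when they bind double-stranded RNA, which activates RNase L, and they are neighbours on chromosome 12. OAS1 had 348 counts in CD44 high cells, against 528 in CD44 low cells (1.52-fold lower, 1.32 to 1.74). OAS2 had 281 against 393 counts (1.40-fold lower, 1.20 to 1.63). OAS3, the longest of them, had 872 against 944 counts, and OASL, which lacks the enzyme activity and binds RIG-I, had 1363 against 1452, and both intervals spanned equality. OAS3 and OASL were slightly higher in CD44 high cells on the TPM scale, at log2 ratios of 0.07 and 0.05, which is below the shift of all genes there. Summed, the 4 genes had 2864 against 3317 counts (1.16-fold lower, 1.10 to 1.22). ISG20, an RNA exonuclease, had 160 counts against 146, with an interval of 0.87 to 1.38. Of the 9 RNA-binding and RNA-degrading effectors, 3 IFIT genes were thus higher beyond counting error, OAS1 and OAS2 lower, and 4 genes neither. For IFIT2 this depends on the scaling. Its log2 interval began at 0.014, and its log2 ratio moved from 0.074 to 0.047 with total counts without mitochondrial genes.

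The membrane effectors held the call of the list. IFITM1 and IFITM3, which stop enveloped viruses from fusing with cell membranes, and IFITM2 lie together on chromosome 11. IFITM1 (ENSG00000185885.15, 313506 to 315272) had 22.59 counts in CD44 high cells, against 105 in CD44 low cells, or 2.27 against 9.55 TPM. That is 4.64-fold lower (2.88 to 7.51), and the gene passed the count minimum only through the CD44 low library. IFITM3 (319669 to 327537) had 2030.3 counts against 2628.92 (1.29-fold lower, 1.22 to 1.37). IFITM2 had 36.12 against 35.09 counts, with an interval of the ratio from 0.63 to 1.69. All 3 IFITM genes had fractional counts in at least 1 library, and in the deposited annotation the span of IFITM2 (307631 to 315272) covers that of IFITM1, so that the level of each is uncertain. The 3 genes together, within which shared reads stay, had 2089.01 against 2769.01 counts, 1.32-fold lower in CD44 high cells (1.25 to 1.40). IFITM3 makes up nearly all of that sum, and IFITM1 differed most.

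BST2, or tetherin, holds budding virus at the cell surface, and it had 3 counts in CD44 high cells against 34 in CD44 low cells (11.3-fold lower, 3.56 to 57.6). This was the largest ratio among the members that reached 20 counts, at a level too low for the count rule. The 3 measured genes among the other antiviral effectors were also lower. SAMD9, which blocks poxvirus replication, had 3625 counts against 4904 (1.35-fold lower, 1.29 to 1.41). Its neighbour and paralog SAMD9L on chromosome 7 had 451 against 717 (1.59-fold lower, 1.41 to 1.79). RSAD2 encodes viperin, which makes a chain-terminating nucleotide, and it had 40 counts against 74 (1.85-fold lower, 1.24 to 2.79), passing the count minimum through the CD44 low library alone. Its TPM values were close, at 1.30 against 1.33. CMPK2, the neighbour of RSAD2 that supplies nucleotides to viperin, was likewise listed at 0 in both libraries, for all of its 7 transcripts. The spans of RSAD2 and CMPK2 overlap at their ends on opposite strands, and whether reads were counted by strand is not known, so that both levels are uncertain. The dynamin-like GTPases MX1 and MX2, among the best known interferon markers, had 5 counts against 10 and 5 against 3, too few to compare.

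Other induced genes differed in both directions. IFI44, a cytoplasmic protein of uncertain function, had 1284 counts in CD44 high cells, against 935 in CD44 low cells (1.37-fold higher, log2 interval 0.34 to 0.58). The paralog beside it on chromosome 1, IFI44L, had 17 counts against 44 (2.59-fold lower, 1.45 to 4.83), so that these neighbours stood on opposite sides of equality. PARP9, which forms a complex with the ubiquitin ligase DTX3L, had 805 against 1061 counts (1.32-fold lower, 1.20 to 1.44). IFI6, an inhibitor of apoptosis at the mitochondrion, had 101 against 129 counts, and IFI35 had 135 against 148. Their intervals, at 0.60 to 1.02 and 0.72 to 1.16, spanned equality.

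The members with 1 to 50 counts were mostly lower in CD44 high cells, 7 of 9 by raw counts, with 4 intervals below equality and none above. Of all 10666 genes with 1 to 50 counts, 53.5% were lower by counts, 7.24% had an interval below equality and 3.01% above. BST2, IFI44L, IFI27 and IFITM2 had 20 to 50 counts, a range where 24.4% of all genes had an interval below equality. The 4 members with an interval below equality owe most of their counts to the CD44 low library. Beside BST2 and IFI44L these were IFI27, a mitochondrial protein used as a marker of interferon exposure, with 9 counts against 33 (3.66-fold lower, 1.71 to 8.70), and EPSTI1, with 7 against 18 (2.57-fold lower, 1.02 to 7.28). XAF1, a proapoptotic gene, had 1 count against 6, a ratio of 0.17 with an interval from 0.0036 to 1.38. The other 4, HERC5, IFITM2, MX1 and MX2, had intervals that spanned equality.

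**Figure D3:**
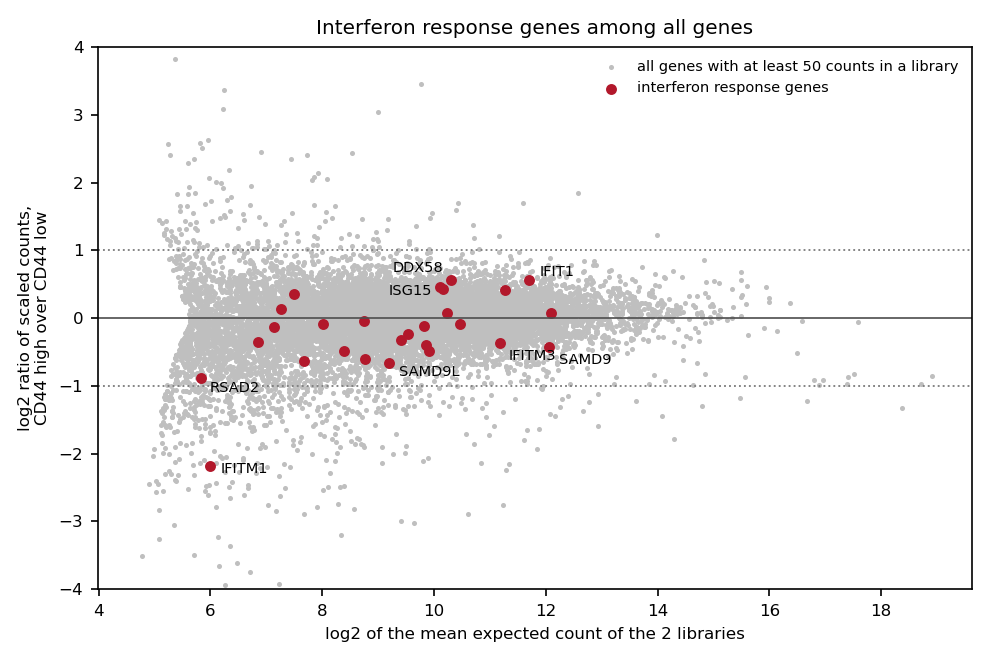
Log2 ratio of scaled counts, CD44 high over CD44 low, against the log2 mean expected count of the libraries for the 12371 genes that reached 50 counts (grey) and the 27 interferon response genes among them (red). Dotted lines mark 2-fold, and 16 genes lie outside the vertical axis. The red points lie inside the cloud of all genes, with IFITM1 below the 2-fold line.

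By role, the median log2 ratios were 0.07 for the 3 sensors and 0.35 for the 3 measured genes of ISG15 and its conjugation. They were -0.04 for the 9 RNA-binding and RNA-degrading effectors and -0.49 for the 3 measured transcription factors. The median of these 9 effectors turned to 0.039 with total counts and 0.097 on the TPM scale, each below that of all genes. The 4 membrane effectors stood at -1.28, the 3 measured other antiviral effectors at -0.67 and the 6 measured other induced genes at -0.37. BST2 among the membrane effectors, and IFI27 and IFI44L among the other induced genes, reached 20 counts only through the CD44 low library. The direction of BST2, IFI27 and IFI44L is thus partly fixed by the filter. The groups are small, with 3 to 9 measured genes each. On the TPM scale the median of the transcription factors was 0.02, below the 0.15 of all genes on that scale. With members of at least 200 counts alone, the membrane effectors, then IFITM3 only, stood at -0.37 and the other induced genes turned to 0.03. In each of the 19 genes whose interval excluded equality, the direction was the same by counts and by TPM relative to the shift of all genes.

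The shares of transcripts within a gene, which the ratio of a gene does not show, were compared for the 20 members that had 200 counts or more in each library. Transcript levels are model estimates with no error given, and transcripts with a share of at least 10% of the TPM of their gene in a library were examined. In 6 of the 20 genes, among them ISG15, IFIT1, IFIT5 and IFITM3, a single transcript reached that share. No share of TPM differed by 30 percentage points or more, and in 5 genes a share differed by at least 10. With shares of transcript counts in place of TPM, 3 genes did (PARP9, OAS1 and DDX58). The largest difference was in PARP9, where transcript PARP9-205 took 59.1% in CD44 high cells and 31.1% in CD44 low cells, and PARP9-204 took 15.9% against 41.2%. In OAS1, transcript OAS1-203 took 38.9% against 24.0% and OAS1-202 took 14.0% against 27.5%. The main transcript of OAS2, OAS2-202, took 49.3% against 66.1% of TPM, and 81.2% against 88.4% of transcript counts. In IRF1, the transcript IRF1-203 had 10.26 TPM in CD44 high cells against 5.32 in CD44 low cells, whereas IRF1-201 had 2.91 against 4.47 and IRF1-202 10.16 against 12.07. The gene was thus lower by counts and slightly higher by TPM, and the transcript that was higher held 16.4% of the transcript counts of IRF1 in CD44 high cells and 7.46% in CD44 low cells. For DDX58, RIGI-202 made 98.8% in CD44 high cells, against 86.4% in CD44 low cells.

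**Figure D4:**
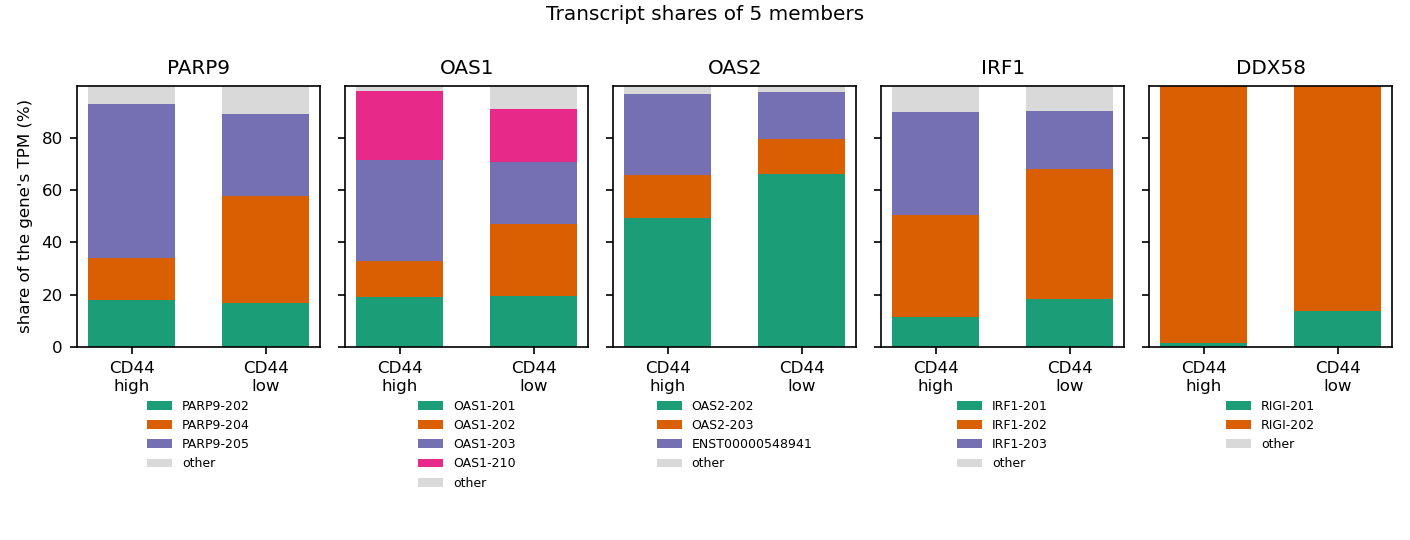
Share of the TPM of a gene (%) taken by each of its transcripts in the CD44 high (left bar) and CD44 low (right bar) library, for the 5 members with a difference of at least 10 percentage points. Colours are transcripts with a share of at least 10% in a library and grey is the rest. The PARP9-205 share was 59.1% in CD44 high and 31.1% in CD44 low cells.

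The remainder of the pathway was examined in further lists, beginning with the interferons themselves. Of 22 ligand genes, 16 were listed at 0 in both libraries, including all IFN-alpha genes and IFNG. IFNL1, an IFN-lambda, had 50 counts in CD44 high cells, against 80 in CD44 low cells (1.60-fold lower, 1.11 to 2.32), and it was the one ligand with at least 50 counts. IFNB1, which encodes IFN-beta, had 10 against 30 counts (ratio 0.33, 0.15 to 0.70). IFNE, an epithelial type I interferon, had 13 against 46 (3.53-fold lower, 1.88 to 7.13). IFNL2 and IFNL3, near-identical copies whose reads are hard to tell apart, had 14 against 41 and 19 against 37, and IFNL4 had 2 against 1. By the count rule no ligand was called. The 5 that reached 20 counts had a median log2 ratio of -1.52 and intervals below equality, but IFNB1, IFNE, IFNL2 and IFNL3 reached that minimum only through the CD44 low library, so that their direction is partly fixed by the filter. Of all genes with 20 to 50 counts, 24.4% had an interval below equality. Each ligand rests on at most 80 counts.

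No receptor, signalling or inhibitor gene was called. Of 6 receptor genes none was called and the median log2 ratio was -0.29. IL10RB, a subunit of the IFN-lambda receptor, had 356 against 517 counts (1.45-fold lower, 1.27 to 1.67) and IFNGR1 had 603 against 838 (1.39-fold lower, 1.25 to 1.54), while IFNAR1, of the type I receptor, had 1709 against 1714. The 6 receptor kinases and STATs had a median of -0.08 and no call. STAT3, which transmits IL-6 and related signals, had 3615 against 3957 (ratio 0.91, 0.87 to 0.96). Of 10 inhibitors, USP18 and ISG15 included, none of the 9 with at least 50 counts was called, and the median was 0.21. The most abundant were the phosphatases PTPN11, with 6968.99 against 6666.99 counts (ratio 1.05, 1.01 to 1.08), and PTPN2, with 2364.99 against 1976.99 (ratio 1.20, 1.13 to 1.27). SOCS1, which blocks JAK kinases, had 30 against 14 counts (2.15-fold higher, 1.10 to 4.38). It is too low for the count rule and entered the median only through the CD44 high library, so that its direction is partly fixed by the filter. SOCS3 had 793 against 1148 (1.45-fold lower, 1.32 to 1.59).

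Upstream, 1 of 11 adaptors and kinases of nucleic acid sensing was called, at a median log2 ratio of 0.05. This was IRF5, a factor that activates interferon and cytokine genes, with 19 counts in CD44 high cells against 107 in CD44 low cells (5.63-fold lower, 3.43 to 9.71), and it passed the count minimum only through the CD44 low library. MAVS, the adaptor of RIG-I and MDA5, had 5177 against 5012 counts with an interval of 0.99 to 1.07. Of 12 further nucleic acid sensors, 8 had at least 50 counts, with a median of -0.25, and IFI16, a sensor of DNA, was the one called, at 361 against 900 counts (2.49-fold lower, 2.20 to 2.82). TLR3, the endosomal receptor for double-stranded RNA, had 180 against 360 (1.998-fold lower, 1.67 to 2.40), just inside the 2-fold limit, and MB21D1, which encodes the DNA sensor cGAS, had 1138 against 915 (1.25-fold higher, 1.14 to 1.36). The DNA sensors IFI16 and cGAS thus stood on opposite sides. Of 9 other IRF family and IRF2-binding genes, 7 had at least 50 counts and the median was -0.44. The only call there was IRF5 again, the same gene as among the adaptors. Of all genes with at least 50 counts, 4.21% were called lower. The median of all genes that reached 20 counts was -0.01.

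Of 56 other interferon-stimulated genes, 46 had at least 50 counts, 3 were called lower and none higher, and their median log2 ratio with those of 20 to 50 counts was -0.07. The 3 were GBP2, a guanylate-binding protein, with 42 counts in CD44 high cells against 196 in CD44 low cells (4.66-fold lower, 3.33 to 6.67), LGALS9, which encodes galectin-9 and has fractional counts, with 18.41 against 84.98 (4.61-fold lower, 2.81 to 8.34), and the death ligand TNFSF10, with 134 against 364 (2.71-fold lower, 2.22 to 3.33). GBP2 and LGALS9 passed the count minimum only through the CD44 low library. In these 46 genes the share called lower, 6.52%, lies beside the 4.21% of all genes. CD274, which encodes PD-L1, had 212 counts against 111 (1.91-fold higher, 1.51 to 2.43), under the 2-fold limit by counts. On the TPM scale its difference was wider, at 8.70 against 2.59 TPM. Of 6 HLA class I heavy chain genes, 5 had at least 50 counts, none was called, and the median was -0.27. HLA-E had 2722.66 against 4177.65 counts (1.53-fold lower, 1.46 to 1.61), and HLA-C had 1366.97 against 1563.7 (ratio 0.88, 0.81 to 0.94), with reads shared among these paralogs.

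**Figure D5:**
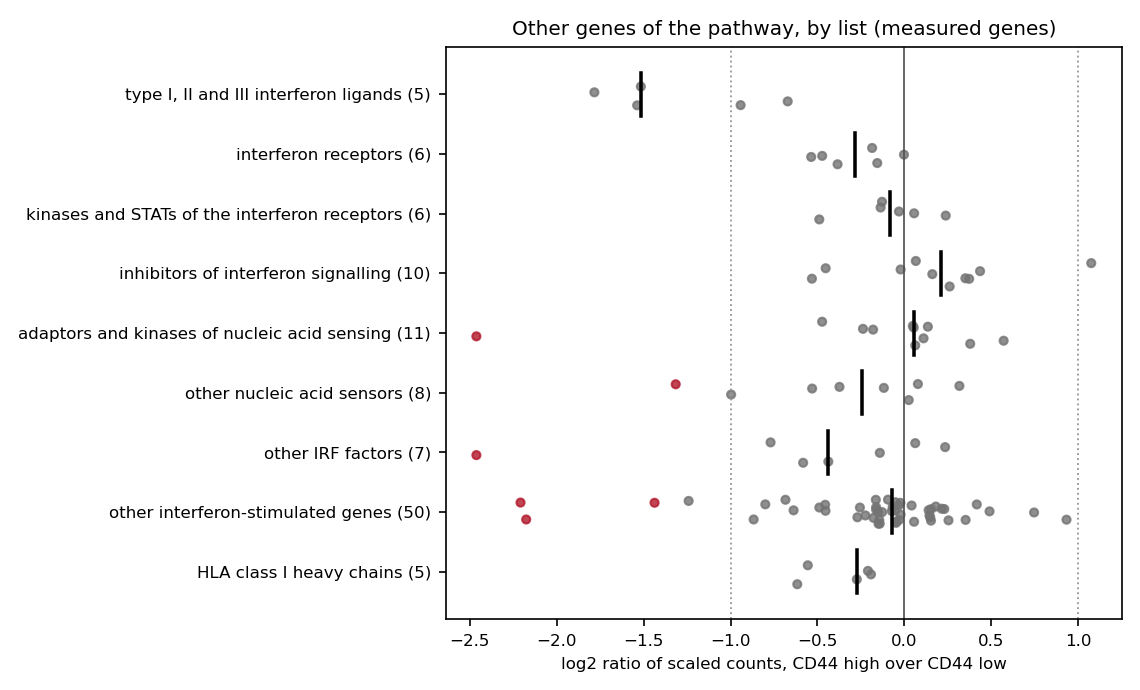
Log2 ratio of scaled counts, CD44 high over CD44 low, of each gene of the further lists that reached 20 counts, with the number of genes in parentheses and the median as a black bar. Red points passed the 2-fold rule (IRF5, which is in 2 lists, IFI16, GBP2, LGALS9 and TNFSF10), and vertical scatter has no meaning. The 5 ligands have a median of -1.52, and 4 of them reached 20 counts only through the CD44 low library.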

How the data were processed

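RNA of sorted KYSE30 cells was sequenced from 1 CD44 high and 1 CD44 low library, grouped by the sample labels. The authors mapped paired reads of poly(A) libraries to GRCh38 with STAR 2.7.8 and quantified them with RSEM 1.2.31. They deposited expected counts divided by a size factor and TPM, for genes and transcripts, beside their EBSeq 1.18.0 fold changes and FDR, which were not used. The sources used here do not say whether molecular identifiers or strand entered the counting. Each deposited column was multiplied back to unscaled counts by its smallest step (size factors 0.999 and 1.00). Log2 ratios carry a prior count of 0.5, and folds carry none. Intervals are Clopper-Pearson intervals on rounded counts. The ratio rule was tested on simulated data with counting error only, in which the changed genes had a mean of at least 200 counts. That simulation does not cover variation between replicates, fractional counts or changed genes with few counts. Fractional counts differ from a whole number by over 0.05. Members, roles and lists were chosen with earlier results of these data known. Every member is accounted for. Of the further lists, genes past the 2-fold rule are named, otherwise the 2 with the most counts, of which 1 item is not reported here. IFNB1, IFNL2, IFNL3, IFNL4, IL10RB, SOCS1, SOCS3, MAVS, TLR3, MB21D1 and CD274 were named after their values had been seen. Transcript names are those of GENCODE release 44, while the sources used here do not state which release the authors counted on. Computations used Python 3.11.15, numpy 2.4.6 and scipy 1.17.1, and edgeR 4.0.16 in R 4.3.3 for TMM factors only.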

Additional observations from a re-analysis of the deposited data

How the results depend on the processing

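With 1 library per fraction the limits are those of counting and scaling. The count of 1 member lower by 2-fold, and of 0 higher, was the same with TMM factors, total counts, total counts without mitochondrial genes, a prior count of 5 and the deeper library thinned. The lower count was 3 on the TPM scale, 4 with a minimum of 20 counts, 0 with a minimum of 200, 5 at 1.5-fold and 0 among members with whole counts only, since the counts of IFITM1 are fractional. Of the 4 members, BST2, IFI27 and IFI44L reached 20 counts only through the CD44 low library. The 3 on the TPM scale were IFITM1, BST2 and IFI27, at log2 ratios of TPM + 1 of -1.69, -1.48 and -1.69. BST2 and IFI27 again had under 50 counts in both libraries. Over all genes, 435 were higher and 490 lower on the TPM scale. With a minimum of 20 counts, 275 of 13893 genes were higher and 830 lower. With a minimum of 200 these numbers were 63 and 233, and at 1.5-fold they were 613 and 1296 of 12371. The numbers of genes tested on the TPM scale and with a minimum of 200 are not given here. The member counts in those settings therefore cannot be read against a share of all genes. The median of all members stayed between -0.29 and -0.02 under all these settings. The IFITM sum had a log2 ratio of -0.40, and of -0.26 on the TPM scale. On that scale the medians were 0.19 for sensors, 0.017 for transcription factors, -0.86 for membrane effectors and -0.28 for other antiviral effectors. Of the further lists, they were 0.084 for receptor kinases and STATs, 0.36 for inhibitors, 0.19 for adaptors and 0.11 for other sensors. With total counts, the medians were -0.0021 for receptor kinases and STATs and -0.17 for other sensors, beside 0.072 for all genes. The RNA-binding and RNA-degrading effectors turned to 0.039 with total counts and 0.097 on the TPM scale. The other interferon-stimulated genes turned to 0.0071 and 0.11. All of these lay below the median of all genes in the same setting. With members of at least 200 counts they were -0.37 for membrane effectors and 0.031 for other induced genes, which stood at -0.85 with no filter on low counts. Of 80 transcript shares (each transcript in each library), 30 moved by at least 10 percentage points with transcript counts in place of TPM. Apart from the thresholds, which count by construction, the cause of these moves was not tested. No paired analysis was possible because each fraction has 1 library.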
